A study of Homo sapiens with 6 samples.

Results

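The matrix metalloproteinases (MMP), the ADAM proteins and the ADAMTS proteases are described here in SW480, a human colon cancer cell line, after knockdown of ALDH1B1, a mitochondrial aldehyde dehydrogenase. Members were all genes of the deposited expression table whose symbol is MMP, ADAM or ADAMTS followed by a number only, which gave 35 of 22258 genes: 11 MMP, 13 ADAM and 11 ADAMTS genes. The rule uses symbols and no expression value, although it was set with earlier results of these data known. The 6 samples were 3 labelled ALDH1B1 KD and 3 labelled as control with the genotype WT and SCR in their titles, each set numbered 4, 5 and 6, all from untreated SW480 cells. The labels name neither the knockdown reagent nor separate cultures or clones, so every p-value reflects the spread among these 6 libraries only, and that spread may be technical.

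MMPs, ADAMs and ADAMTS enzymes are zinc proteases made as inactive precursors. MMPs cut matrix proteins such as collagens, and the membrane-type enzymes among them are held at the cell surface. ADAMs span the membrane and release the outer parts of growth factor precursors, Notch and adhesion molecules, a step called shedding. Some ADAMs have lost the zinc site and do not cut proteins, and among them are adhesion molecules and receptors. ADAMTS proteases are secreted and cut proteoglycans, procollagen or von Willebrand factor. Tissue inhibitors of metalloproteinases (TIMPs) block them, and in colon tumours much MMP protein comes from the stroma, which a cultured line lacks.

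The zinc-binding site of the protease domain is shown first, because it is the feature that the members without protease activity lack. The site was searched as 11 codons in the longest coding sequence of each gene in GENCODE 29 (GRCh38), and was found in 28 of the 35 members and in 62 of 19571 protein-coding genes (0.317%). The stretches below are coding DNA, 5′ to 3′, for members on which the results turn, and capitals mark the codons of the 3 histidines, the glutamate and the glycine of the motif.
MMP14: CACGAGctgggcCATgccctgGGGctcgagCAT
MMP15: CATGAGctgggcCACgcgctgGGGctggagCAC
MMP9: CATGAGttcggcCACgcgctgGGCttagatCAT
ADAM19: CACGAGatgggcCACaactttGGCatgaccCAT
ADAM8: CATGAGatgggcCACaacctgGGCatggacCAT
ADAM17: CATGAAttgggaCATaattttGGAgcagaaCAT
ADAM10: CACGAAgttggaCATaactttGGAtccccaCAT
ADAMTS13: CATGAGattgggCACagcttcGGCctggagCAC
ADAMTS16: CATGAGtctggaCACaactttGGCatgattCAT
ADAMTS8: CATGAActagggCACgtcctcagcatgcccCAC
ADAMTS15: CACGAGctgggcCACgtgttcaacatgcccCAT
In GRCh38 the site of MMP14 lies at chr14:22843283-22843315 (plus strand), that of MMP15 at chr16:58040563-58040595 (plus strand) and that of MMP9 at chr20:46012453-46012485 (plus strand). The site of ADAM19 lies at chr5:157505734-157505766 (minus strand), that of ADAM8 at chr10:133271880-133271912 (minus strand) and that of ADAM17 at chr2:9510078-9510110 (minus strand), each within 1 coding exon. In ADAM10 the site is split between exons 9 and 10, in ADAMTS13 between exons 6 and 7, in ADAMTS16 between exons 8 and 9, in ADAMTS8 between exons 3 and 4 and in ADAMTS15 between exons 2 and 3. ADAMTS8, ADAMTS15 and ADAMTS9 kept the histidine and glutamate codons but not the glycine codon, so their capitals mark 4 codons. Neither form was found in ADAM11, ADAM22, ADAM23 and ADAM32, which are known as ADAMs without protease activity.

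ALDH1B1 itself, the targeted gene, had 19.99, 20.4 and 23.2 RPM in the knockdown samples, against 34.1, 39.6 and 36.7 RPM in the control samples. It was at 57.6% of the control mean (log2 fold change -0.80, SE 0.0926, limma adjusted p = 2.37e-07), and its 6 values gave p = 0.1 in an exact two-sided permutation test, the smallest that 3 against 3 samples allow. Per-sample values are given throughout in the order of replicates 4, 5 and 6, in RPM, reads per 1000000 reads of sequencing depth. Sequencing depth ranged between 20360000 and 28590000 reads. Control replicate 6 stood apart from the other controls on the second principal component, at 23.6 against -11.3 and -18.7 for replicates 4 and 5. On the first component, which split the groups and held 68.5% of the variance, it was at -45.1 against -26.6 and -30.7. The listed genes made up 65.1% of its depth, against 67.2% to 71.1% in the other samples. Calls that rest on control replicate 6 are therefore named. Of 11 markers of colon epithelium 9 were found, and they summed to 5778 to 6088 RPM in the knockdown samples and 5423 to 5675 RPM in the control samples, with EPCAM and VIL1 that rose and CDX2 that fell. Keratins of simple epithelium were abundant, for example KRT8 with 2743 ± 62.7 RPM in the knockdown and 2702 ± 12.0 RPM in the control (SD, n = 3 each), while the colon markers KRT20 and GPA33 were under 3 reads in 3 of 6 samples. Markers of fibroblasts, a main source of MMPs in tumours, were found for 3 of 9 genes and summed to 5.37 to 7.03 RPM in the knockdown samples and 4.18 to 5.74 RPM in the control samples, nearly all of it COL1A1. For leukocytes 5 of 7 markers summed to 1.72 to 2.13 RPM in the knockdown samples and 1.84 to 2.91 RPM in the control samples, and for endothelium 1 of 4, VWF, had 0.497 to 0.688 RPM in the knockdown samples and 0.425 to 0.617 RPM in the control samples. CD68, a lysosomal protein used to mark macrophages, fell, with 0.311 ± 0.106 RPM in the knockdown and 1.17 ± 0.320 RPM in the control (SD, n = 3 each), and entered the test only through the control samples. The part of these differences in the results below was not tested.

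Transcripts of the family changed in both directions in knockdown cells. Of the 35 members, 26 averaged 0.688 RPM or more over the 6 samples and were tested with limma on the log2 values, with Benjamini-Hochberg adjustment over 15496 genes. Of these 26, 6 rose and 8 fell, which is 53.8% called against 41.8% of all genes tested. The shares by direction were 22.6% rising and 19.2% falling over all genes. The members' median log2 fold change was 0.19, against 0.00 for all genes tested. That gap depends on scarce genes and on the scaling. Over all genes the median was -0.03 with a stricter filter of 3.44 RPM, which left 15 members. Under quantile normalization every tested member averaging under 3.44 RPM had a lower log2 fold change. MMP19, for example, had 0.09 there against 0.32, and ADAMTS9 0.008 against 0.24. The members' median was not taken under these settings. The MMP14, MMP15, ADAM19, ADAM9 and ADAM10 mRNAs were among those that fell, and MMP9, ADAM8, ADAM32 and ADAMTS13 among those that rose. In total RNA of a whole culture, fewer cells that make a transcript and less transcript per cell cannot be told apart. The filter let 5 members pass only through the group in which they were higher (ADAM23, ADAM32, ADAMTS16, MMP25 and MMP9), so for the 3 of them that were called the difference itself helped them into the test. The groups did not overlap for 9 tested members that were higher and 6 that were lower in the knockdown, against 26.5% and 24.6% of all genes tested (51% in either direction). Without a variance trend 9 members changed and 5 of them fell, and with a stricter filter of 3.44 RPM 3 rose.

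**Figure D1:**
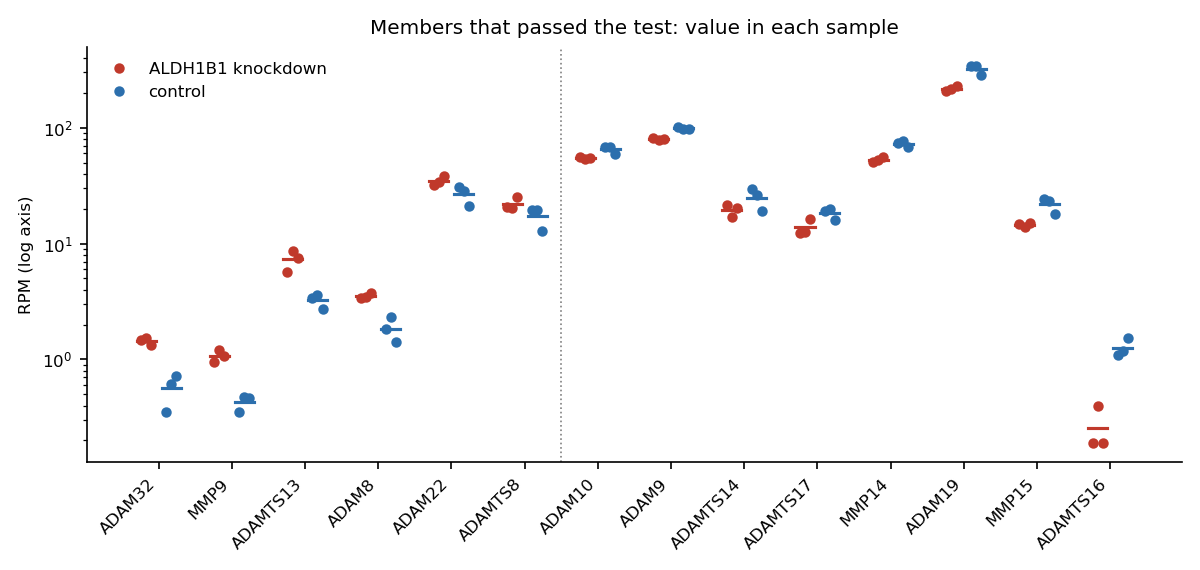
RPM on a log axis for the 14 members that passed the test, with 1 point per sample, knockdown left of control, and a bar at each group mean. The 6 that rose stand left of the dotted line and the 8 that fell right of it, and only ADAMTS14 and ADAMTS17 have overlapping groups.

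**Figure D2:**
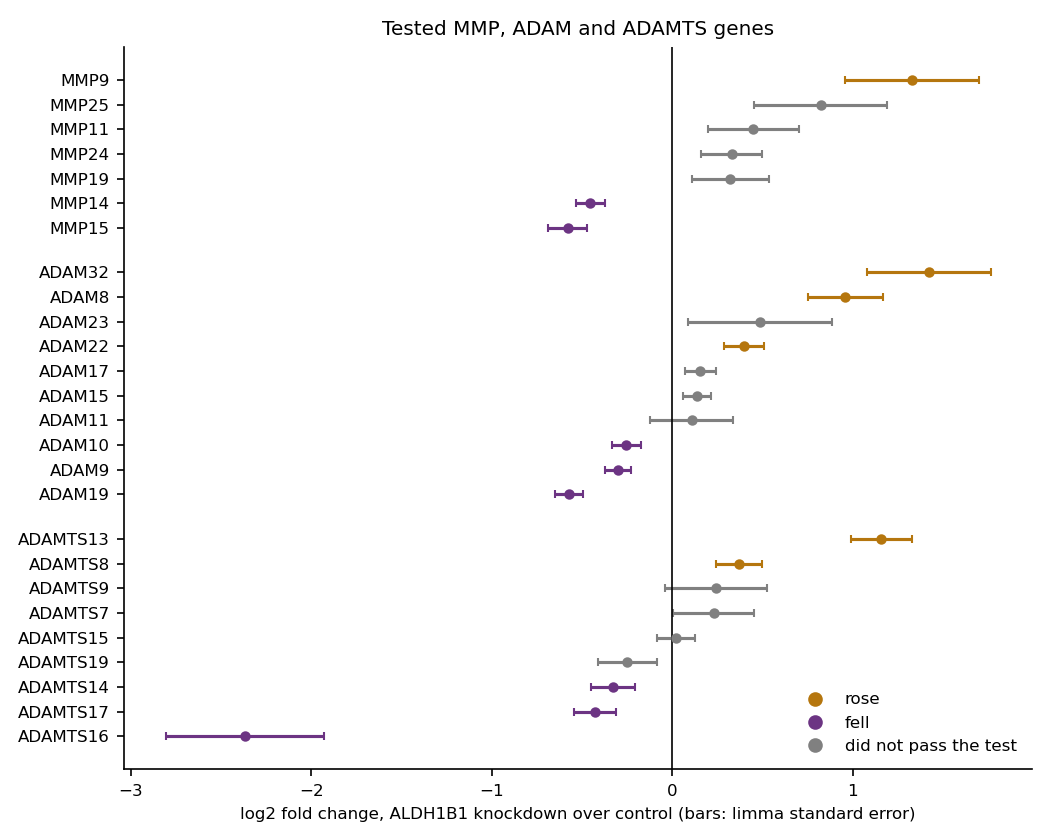
The log2 fold change of knockdown over control for the 26 tested members, grouped by family, with limma's standard error as bars. The values run from -2.37 for ADAMTS16 to 1.42 for ADAM32, and scarce members have the widest bars.

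Among genes, levels are compared only per length, as RPM per kilobase of the longest protein-coding transcript in GENCODE 29, since the gene models behind the table are not given here. On that scale ADAM19 had the highest level of the tested members, with 33.5 RPM per kilobase in the knockdown and 49.9 in the control. It was followed by ADAM15 with 30.4 and 27.7, ADAM9 with 20.8 and 25.6, MMP14 with 14.2 and 19.5, and ADAM17 with 9.83 and 8.85 RPM per kilobase in the knockdown and the control. Per kilobase of coding sequence the same 4 genes stood first, with ADAM19 at 75.7 in the knockdown and 113 in the control. In the knockdown ADAM10 ranked 7 per transcript length and 5 per coding length, with a longest transcript of 11431 bases and a coding sequence of 2244. The gelatinase MMP9 was far lower, at 0.46 RPM per kilobase of transcript in the knockdown and 0.184 in the control.

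**Figure D3:**
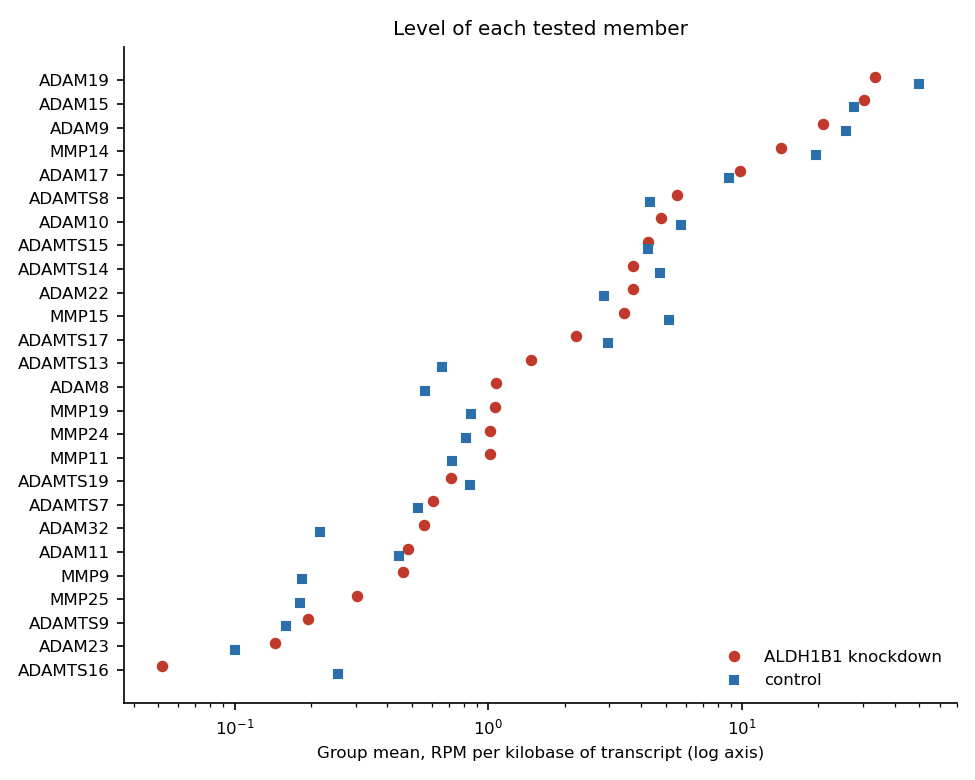
Group mean level of each tested member in RPM per kilobase of transcript, on a log axis, with circles for the knockdown and squares for the control. ADAM19, ADAM15, ADAM9 and MMP14 lead in both groups, and ADAMTS16 has the lowest level in the knockdown.

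Among the membrane-type MMPs, MMP14 and MMP15 fell and no member of the group rose. MMP14 (chromosome 14, 23305766 to 23318237 by the deposited coordinates, of an unnamed build) encodes MT1-MMP, the membrane collagenase that also activates the MMP2 precursor. It had 50.5, 53.0 and 55.6 RPM in the knockdown samples, against 73.4, 77.0 and 67.5 RPM in the control samples. Every knockdown sample lay below every control sample, and the mean was 73.0% of control (log2 fold change -0.45, SE 0.0800, limma adjusted p = 6.96e-05). MMP15 (chromosome 16, 58059470 to 58080806), the related MT2-MMP, had 14.7, 13.8 and 15.1 RPM in the knockdown samples, against 24.1, 23.3 and 18.1 RPM in the control samples. Its groups did not overlap either, and the mean was 66.5% of control (log2 fold change -0.58, SE 0.108, limma adjusted p = 1.37e-04). MMP24, a membrane-type MMP best known from neurons, had 4.48, 4.07 and 4.87 RPM in the knockdown samples, against 4.34, 3.52 and 2.93 RPM in the control samples. The ranges overlapped, and the difference did not pass the test (log2 fold change 0.33, SE 0.1704, limma adjusted p = 0.124). MMP25, which is held by a lipid anchor and known from neutrophils, had 1.27, 1.05 and 0.922 RPM in the knockdown samples, against 0.366, 0.703 and 0.865 RPM in the control samples. All knockdown values were above all control values, but on 10 to 27 reads per sample the difference missed the threshold (log2 fold change 0.82, SE 0.368, limma adjusted p = 0.0754), and it passed without control replicate 6 (adjusted p = 0.0292). RP11-473M20.7, which overlaps MMP25 on the opposite strand, was more abundant and rose, with means of 6.44 RPM in the knockdown and 3.17 in the control. Whether reads of this pair were assigned by strand is not given here. MMP17, with the same kind of anchor, stayed under the filter with 1 to 6 reads per sample.

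Among the secreted MMPs the gelatinase MMP9 rose. MMP9 (chromosome 20, 44637547 to 44645201) cuts denatured collagen and basement membrane collagen. It had 0.950, 1.21 and 1.07 RPM in the knockdown samples, against 0.350, 0.474 and 0.467 RPM in the control samples, on 20, 25 and 28 reads in the knockdown and 10, 10 and 11 in the control. The groups did not overlap, and the mean was 249.9% of control (log2 fold change 1.33, SE 0.373, limma adjusted p = 0.00575). MMP9 entered the test only through the knockdown samples. The other gelatinase, MMP2, which MMP14 activates, was under the filter with 0.285, 0.393 and 0.535 RPM in the knockdown samples, against 0.350, 0.522 and 0.382 RPM in the control samples, and its groups overlapped. MMP28, or epilysin, an enzyme of epithelia and keratinocytes, was also under the filter. It had 13, 11 and 11 reads in the knockdown samples, against 2, 0 and 2 reads in the control samples, which is 0.617, 0.540 and 0.420 RPM and 0.06997, 0 and 0.0850 RPM. All control values of MMP28 were under the floor of 3 reads and all knockdown values above it, and no test was made. MMP11, a stromelysin that furin activates inside the cell, and MMP19, which cuts basement membrane proteins, did not pass the test. MMP11 had 3.04, 1.54 and 2.37 RPM in the knockdown samples, against 1.92, 1.33 and 1.70 RPM in the control samples, and its knockdown replicate 5 stood close to the controls (log2 fold change 0.45, SE 0.251, limma adjusted p = 0.155). Without knockdown replicate 5 the MMP11 difference passed, at a log2 fold change of 0.72 (adjusted p = 0.0372). MMP19 had 2.03, 2.77 and 2.33 RPM in the knockdown samples, against 2.13, 1.65 and 1.91 RPM in the control samples (log2 fold change 0.32, SE 0.215, limma adjusted p = 0.238). MMP7, the matrilysin of epithelial tumours and a known Wnt target, had 0 to 5 reads per sample in both groups, so no difference was detectable at this depth.

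The abundant ADAMs with a protease domain fell or did not pass the test. ADAM19 (chromosome 5, 156822542 to 157002784), also called meltrin beta and known to cut neuregulin precursors, had 207, 214 and 229.9 RPM in the knockdown samples, against 342, 341 and 287 RPM in the control samples. These values rest on 4351 to 9770 reads per sample, the groups did not overlap, and the mean was 67.1% of control (log2 fold change -0.57, SE 0.0796, limma adjusted p = 3.17e-06). CYFIP2, which overlaps ADAM19 on the opposite strand, rose, with a log2 fold change of 1.26 from a mean of 14.3 RPM in the knockdown and 5.95 in the control, so the pair moved in opposite directions. Whether reads were assigned by strand is not given here, for this pair or for the overlapping pairs below. ADAM9 (chromosome 8, 38854388 to 38962664), a widely expressed sheddase, had 81.9, 78.4 and 79.5 RPM in the knockdown samples, against 100.4, 97.4 and 97.6 RPM in the control samples. Its groups lay apart with little spread in each, at 79.9 ± 1.77 RPM in the knockdown and 98.5 ± 1.71 RPM in the control (SD, n = 3 each) (log2 fold change -0.30, SE 0.0732, limma adjusted p = 0.00183). ADAM15, which carries an integrin-binding sequence, had 88.7, 88.5 and 91.4 RPM in the knockdown samples, against 83.8, 87.3 and 73.9 RPM in the control samples. The knockdown values were all above the control values, by a margin that did not pass the test (log2 fold change 0.14, SE 0.0785, limma adjusted p = 0.169).

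ADAM10 and ADAM17 are the main sheddases of most cells. ADAM10 (chromosome 15, 58887403 to 59042178), which makes the first cut of Notch receptors and sheds E-cadherin, had 55.9, 53.8 and 54.4 RPM in the knockdown samples, against 68.7, 68.1 and 59.3 RPM in the control samples. The groups did not overlap and the mean was 83.7% of control (log2 fold change -0.25, SE 0.0805, limma adjusted p = 0.0132). That call was lost under 5 of 17 alternatives, at adjusted p of 0.0510 to 0.0842, among them leaving out knockdown replicate 5, control replicate 4 or control replicate 5. ADAM17 (chromosome 2, 9628615 to 9695922), the enzyme that releases TNF and transforming growth factor alpha, had 43.3, 44.5 and 42.3 RPM in the knockdown samples, against 40.1, 41.6 and 35.4 RPM in the control samples. It was slightly higher in every knockdown sample but did not pass the test (log2 fold change 0.16, SE 0.0847, limma adjusted p = 0.145). ADAM15 and ADAM17 passed as higher under each of 4 other scalings, at log2 fold changes of 0.13 to 0.21, while without control replicate 6 they stood at 0.066 and 0.086 and did not pass. Whether ADAM10 and ADAM17 changed differently was not tested.

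Of the less abundant ADAMs with a protease domain, ADAM8 rose. ADAM8 (chromosome 10, 135075907 to 135090373), known from leukocytes and from invasive tumours, had 3.42, 3.44 and 3.71 RPM in the knockdown samples, against 1.82, 2.32 and 1.40 RPM in the control samples. Its knockdown values lay close together and all above the controls, at 191% of the control mean (log2 fold change 0.96, SE 0.207, limma adjusted p = 5.84e-04). ADAM12, ADAM20 and ADAM21 were under the filter, and in each the knockdown samples were below the control samples without overlap. ADAM12, or meltrin alpha, had 2, 2 and 4 reads in the knockdown and 6, 8 and 8 in the control. ADAM21, a testis gene, had 2, 3 and 2 reads in the knockdown and 8, 4 and 6 in the control. ADAM20, also a testis gene, had 1, 0 and 1 reads in the knockdown and 3, 9 and 2 in the control. At such counts these differences are given as values only. Of the 9 members under the filter, 3 were lower and 2 higher in the knockdown without overlap, and 4 overlapped. None of the 9 was called when the test was run with no filter, where samples with 0 reads widen the spread. The share over all genes under the filter was not taken.

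The ADAMs without a zinc site were higher or did not pass the test. ADAM22 (chromosome 7, 87563458 to 87832205), a neuronal receptor for the secreted protein LGI1, had 31.9, 33.9 and 38.6 RPM in the knockdown samples, against 30.5, 28.2 and 21.2 RPM in the control samples. The knockdown values were all above the control values, at 131% of the control mean (log2 fold change 0.40, SE 0.110, limma adjusted p = 0.00514), a call lost without a variance trend (adjusted p = 0.0873). ADAM32 (chromosome 8, 38964509 to 39142431), known mainly from testis, had 1.47, 1.52 and 1.34 RPM in the knockdown samples, against 0.350, 0.617 and 0.722 RPM in the control samples. On the scale used here this was the largest rise among the tested members, on 10 to 35 reads per sample (log2 fold change 1.42, SE 0.342, limma adjusted p = 0.00165). That rank depended on the pseudocount, the amount added to each value before the log. With 0.5 RPM the log2 fold change of ADAM32 was 0.89, against 1.05 for ADAMTS13. With 1 RPM it was 0.65, against 0.96 for ADAMTS13. ADAM32 entered the test only through the knockdown samples. ADAM32 starts 1844 bases beyond the end of ADAM9 on the same strand of chromosome 8, and these neighbours changed in opposite directions. ADAM11 and ADAM23, both neuronal, did not pass. ADAM23 had 0.522, 0.982 and 1.22 RPM in the knockdown samples, against 0.665, 0.806 and 0.425 RPM in the control samples (log2 fold change 0.49, SE 0.398, limma adjusted p = 0.339), and ADAM11 had 1.90, 1.87 and 2.87 RPM in the knockdown samples, against 2.20, 2.28 and 1.61 RPM in the control samples (log2 fold change 0.11, SE 0.230, limma adjusted p = 0.730).

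The secreted ADAMTS proteases moved both ways, with 2 that rose and 3 that fell of 9 tested, beside 22.6% that rose and 19.2% that fell of all genes tested. ADAMTS13 (chromosome 9, 136279478 to 136324509), the plasma protease that cuts von Willebrand factor and is made mainly in liver, had 5.65, 8.65 and 7.57 RPM in the knockdown samples, against 3.39, 3.604 and 2.72 RPM in the control samples. The groups did not overlap, and the mean was 225% of control (log2 fold change 1.16, SE 0.168, limma adjusted p = 5.49e-06). REXO4, an exonuclease gene that overlaps ADAMTS13 on the opposite strand, fell, with a log2 fold change of -0.38 (limma adjusted p = 0.00163). ADAMTS16 (chromosome 5, 5140443 to 5320418) showed the largest fall of the tested members. It had 0.190, 0.393 and 0.191 RPM in the knockdown samples, against 1.08, 1.19 and 1.53 RPM in the control samples, on 4, 8 and 5 reads in the knockdown and 31, 25 and 36 in the control. No knockdown sample came near a control sample, and the mean was 20.4% of control (log2 fold change -2.37, SE 0.437, limma adjusted p = 1.16e-04). ADAMTS16 entered the test only through the control samples.

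ADAMTS17, known for its part in fibrillin microfibrils, and ADAMTS14, which trims the ends of procollagen, fell with overlapping groups. ADAMTS17 (chromosome 15, 100511794 to 100882211) had 12.3, 12.7 and 16.4 RPM in the knockdown samples, against 19.2, 19.97 and 16.1 RPM in the control samples. Knockdown replicate 6 exceeded control replicate 6 (log2 fold change -0.43, SE 0.117, limma adjusted p = 0.00474), and the call was lost without a variance trend (adjusted p = 0.0576). ADAMTS14 (chromosome 10, 72432559 to 72522198) had 21.5, 17.1 and 20.4 RPM in the knockdown samples, against 29.6, 26.1 and 19.2 RPM in the control samples. Here control replicate 6 lay among the knockdown values (log2 fold change -0.33, SE 0.123, limma adjusted p = 0.0340). The call was lost under 7 of 17 alternatives, among them leaving out knockdown replicate 5, control replicate 4 or control replicate 5 (adjusted p = 0.218, 0.232 and 0.0956).

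ADAMTS8 and ADAMTS15, which cut proteoglycans of the aggrecan family and share the site without the glycine codon, lie 19979 bases apart on opposite strands of chromosome 11. ADAMTS8 (chromosome 11, 130274820 to 130298889) had 20.8, 20.3 and 25.2 RPM in the knockdown samples, against 19.7, 19.6 and 12.9 RPM in the control samples. Its rise (log2 fold change 0.37, SE 0.128, limma adjusted p = 0.0231) was lost under 5 of 17 alternatives. Without control replicate 6, the lowest sample, the log2 fold change was 0.17 (adjusted p = 0.169), and without knockdown replicate 6 it was 0.27 (adjusted p = 0.0960). With no filter, no variance trend and a robust variance prior the adjusted p was 0.0942, 0.166 and 0.0575. ADAMTS15 had 22.9, 25.1 and 24.7 RPM in the knockdown samples, against 26.2, 26.4 and 19.7 RPM in the control samples, and its means were nearly equal (log2 fold change 0.02, SE 0.105, limma adjusted p = 0.899). ADAMTS9, of the same group, had 1.85, 0.982 and 1.61 RPM in the knockdown samples, against 1.12, 1.38 and 1.15 RPM in the control samples, with overlap (log2 fold change 0.24, SE 0.283, limma adjusted p = 0.515). ADAMTS19 had 3.18, 3.83 and 4.20 RPM in the knockdown samples, against 4.76, 4.17 and 4.33 RPM in the control samples, and ADAMTS7, which cuts the cartilage protein COMP, had 2.47, 3.63 and 3.90 RPM in the knockdown samples, against 3.63, 3.13 and 1.91 RPM in the control samples. Neither passed, at log2 fold changes of -0.25 and 0.23 (adjusted p = 0.225 and 0.427 by limma). Under the filter, ADAMTS10 had 11, 9 and 13 reads in the knockdown and 3, 9 and 0 in the control. In RPM its knockdown samples were all above its control samples, narrowly, with 0.442 in knockdown replicate 5 and 0.427 in control replicate 5. ADAMTS6 had 1 to 4 reads per sample.

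The 12 tested members that did not pass had log2 fold changes of -0.25 to 0.82, 11 of them above 0. Under quantile normalization ADAM11 stood at -0.13, ADAMTS7 at 0.007 and ADAMTS9 at 0.008. Leaving out control replicate 6 turned ADAM11, ADAMTS7 and ADAMTS15 to -0.048, -0.044 and -0.12 on the log2 scale, again without passing the test. Without that sample the family again had 6 members that rose and 8 that fell, with MMP25 among them and ADAMTS8 not. MMP24 passed as higher without control replicate 4 (adjusted p = 0.0420), and ADAMTS19 passed as lower under quantile normalization (adjusted p = 0.0220).

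Several partners that carry ADAM10 and ADAM17 to the surface had larger log2 fold changes than the enzymes themselves. Of 24 tested genes on a list of inhibitors, activators, partners and relatives of these proteases, 10 rose and 5 fell (62.5% called, against 41.8% of all genes tested), with a median log2 fold change of 0.15, and 3 to 7 fell when single samples were left out (7 without control replicate 6, and 3 without knockdown replicate 4 or 5 or without control replicate 4 or 5). TSPAN5, TSPAN10, TSPAN14, TSPAN15, TSPAN17 and TSPAN33 encode the TspanC8 tetraspanins, each of which binds ADAM10 and directs it to a set of substrates. TSPAN5 fell, with 25.2, 23.9 and 26.4 RPM in the knockdown samples, against 40.1, 45.9 and 46.2 RPM in the control samples (log2 fold change -0.81, SE 0.0881, limma adjusted p = 9.00e-08). TSPAN15 and TSPAN33 rose. TSPAN15 had 7.65, 7.17 and 9.48 RPM in the knockdown samples, against 4.76, 4.36 and 3.19 RPM in the control samples (log2 fold change 0.99, SE 0.159, limma adjusted p = 2.12e-05), and TSPAN33 had 10.97, 11.004 and 10.05 RPM in the knockdown samples, against 5.002, 3.79 and 4.04 RPM in the control samples (log2 fold change 1.33, SE 0.136, limma adjusted p = 3.14e-08). In all of these the groups lay apart. TSPAN14, TSPAN17 and TSPAN10 did not pass, at log2 fold changes of 0.00, -0.20 and 0.26 (adjusted p = 0.997, 0.0547 and 0.463 by limma).

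ADAM17 needs an iRhom protein to leave the endoplasmic reticulum and FRMD8 to stay stable at the surface. RHBDF2, which encodes iRhom2, rose with 39.5, 42.0 and 47.1 RPM in the knockdown samples, against 30.1, 27.8 and 25.4 RPM in the control samples (log2 fold change 0.62, SE 0.0913, limma adjusted p = 6.25e-06). RHBDF1, which encodes iRhom1, rose by less, with 23.5, 23.8 and 27.2 RPM in the knockdown samples, against 20.3, 20.5 and 17.3 RPM in the control samples (log2 fold change 0.36, SE 0.0987, limma adjusted p = 0.00467). FRMD8 did not pass the test, with a log2 fold change of -0.10 (adjusted p = 0.348 by limma).

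**Figure D4:**
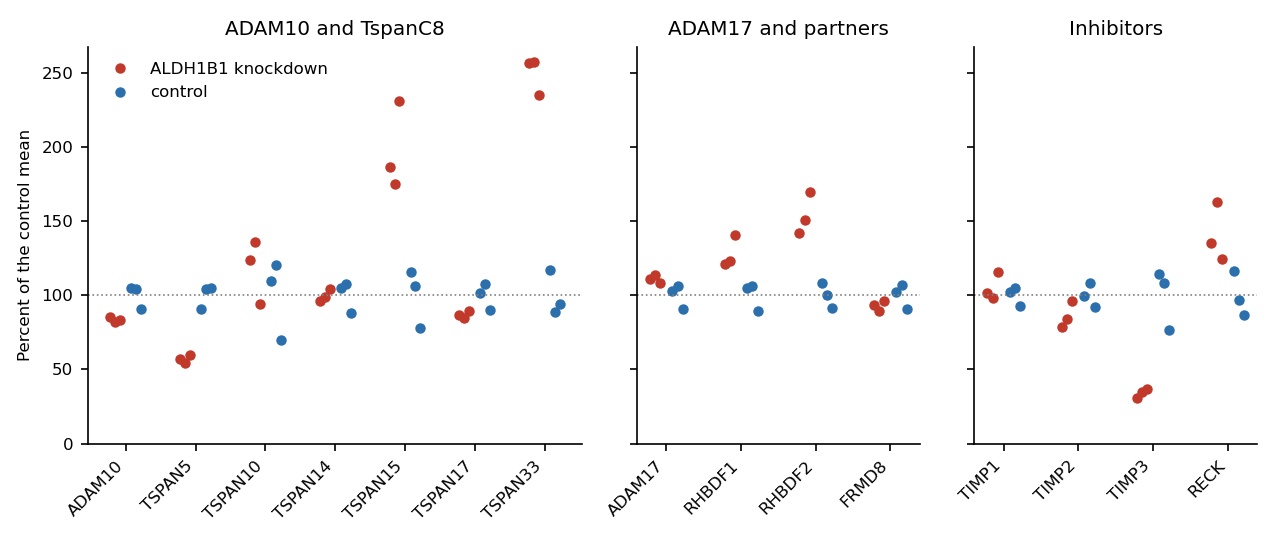
Values as percent of the control mean for ADAM10 and the TspanC8 tetraspanins, for ADAM17 and its partners, and for inhibitors, with 1 point per sample and knockdown left of control. TSPAN15 and TSPAN33 stand well above the control and TSPAN5 and TIMP3 well below it, while the knockdown means of ADAM10 and ADAM17 are at 83.7% and 111%.

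Of the inhibitors, TIMP3 changed most. TIMP3, which binds to the matrix and blocks ADAM17 and ADAMTS enzymes as well as MMPs, had 17.1, 19.5 and 20.6 RPM in the knockdown samples, against 63.7, 60.5 and 42.8 RPM in the control samples. It was at 34.3% of the control mean, with no overlap (log2 fold change -1.53, SE 0.114, limma adjusted p = 1.23e-10). TIMP2, which blocks MMP2 and takes part in its activation by MMP14, had 159, 169 and 194 RPM in the knockdown samples, against 201, 219 and 187 RPM in the control samples, a small fall with overlapping groups (log2 fold change -0.22, SE 0.0822, limma adjusted p = 0.0364). TIMP1 did not pass (log2 fold change 0.07, SE 0.0884, limma adjusted p = 0.531), and TIMP4 was under the filter with 0.475, 0.884 and 0.535 RPM in the knockdown samples, against 0.420, 0.190 and 0.255 RPM in the control samples. RECK, a membrane-anchored MMP inhibitor, rose, with 4.56, 5.502 and 4.20 RPM in the knockdown samples, against 3.92, 3.27 and 2.93 RPM in the control samples (log2 fold change 0.50, SE 0.168, limma adjusted p = 0.02002).

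Enzymes that activate precursor forms were also split. FURIN, the main convertase for membrane-type MMPs and ADAMs, did not pass (log2 fold change -0.06, SE 0.0776, limma adjusted p = 0.550). The related convertase PCSK7 rose by 0.36 and PCSK5 fell by 0.31 on the log2 scale (limma adjusted p = 0.00147 and 0.00417). The plasminogen activators PLAU and PLAT, which start a cascade that activates secreted MMPs, rose by 0.63 and 0.79 on the log2 scale. PLAU had 13.4, 14.4 and 15.7 RPM in the knockdown samples, against 10.2, 9.53 and 8.49 RPM in the control samples, and PLAT had 10.8, 10.6 and 14.3 RPM in the knockdown samples, against 8.61, 7.64 and 4.80 RPM in the control samples. BSG, a surface protein that induces MMPs in neighbouring fibroblasts, fell slightly (log2 fold change -0.21, SE 0.0726, limma adjusted p = 0.0225).

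Transcripts of known substrates changed in both directions. Of 31 tested genes on a list of substrates, 13 rose and 8 fell (67.7% called, against 41.8% of all genes tested), with a median log2 fold change of 0.16. Among substrates that ADAM17 releases, TGFA, a ligand of the EGF receptor, had 53.2, 53.4 and 57.4 RPM in the knockdown samples, against 30.4, 28.9 and 26.7 RPM in the control samples (log2 fold change 0.93, SE 0.0840, limma adjusted p = 3.37e-09). The cytokine TNF had 3.28, 3.39 and 3.44 RPM in the knockdown samples, against 1.29, 1.33 and 1.32 RPM in the control samples (log2 fold change 1.36, SE 0.205, limma adjusted p = 9.45e-06). L1CAM, an adhesion molecule shed by ADAM10 and ADAM17, had 155, 168 and 188 RPM in the knockdown samples, against 88.1, 92.8 and 79.0 RPM in the control samples (log2 fold change 0.97, SE 0.0825, limma adjusted p = 1.24e-09). In these 3 genes every knockdown sample was above every control sample. TNFRSF1A, a TNF receptor that ADAM17 also sheds, fell without overlap (log2 fold change -0.34, SE 0.0844, limma adjusted p = 0.00192). HBEGF, another EGF receptor ligand, did not pass (log2 fold change -0.01, SE 0.180, limma adjusted p = 0.980), and the ligand AREG was under the filter, with 0.395, 0.196 and 0.497 RPM in the knockdown samples, against 0.630, 0.620 and 0.586 RPM in the control samples. IGFBP3, a binding protein of insulin-like growth factors that several of the proteases cut, and CDH1, the E-cadherin that ADAM10 sheds, rose by 1.31 and 1.98 on the log2 scale.

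The matrix proteins on the list changed in both directions. FN1, fibronectin, and THBS1, a thrombospondin, fell, at log2 fold changes of -1.34 and -0.81 (limma adjusted p = 1.12e-12 and 1.43e-07). LAMA3 and LAMB3, chains of the laminin of epithelial basement membranes, and COL4A2, a chain of basement membrane collagen, rose, at 0.56, 0.63 and 0.38 on the log2 scale (limma adjusted p = 8.73e-06, 2.07e-06 and 0.00255). COL1A1 did not pass, at 0.30 (limma adjusted p = 0.139).

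Of the ligands and receptors of contact signalling, EFNA5, JAG1 and NOTCH2 fell. EFNA5, an ephrin that ADAM10 releases, had 0.332, 0.344 and 0.153 RPM in the knockdown samples, against 4.58, 5.98 and 4.76 RPM in the control samples, a log2 fold change of -4.29 (SE 0.319, limma adjusted p = 1.18e-10). Its knockdown mean was under the filter, so EFNA5 entered the test only through the control samples. The Notch ligand JAG1 had 15.1, 18.1 and 16.1 RPM in the knockdown samples, against 28.2, 30.9 and 28.7 RPM in the control samples (log2 fold change -0.83, SE 0.0962, limma adjusted p = 2.13e-07). The receptor NOTCH2 fell by a smaller amount (log2 fold change -0.28, SE 0.0761, limma adjusted p = 0.00433), and NOTCH1 did not pass (log2 fold change -0.01, SE 0.0901, limma adjusted p = 0.956). The Notch ligand DLL1 and the ephrin receptor EPHA2 did not pass either, at log2 fold changes of 0.16 and 0.08 (limma adjusted p = 0.488 and 0.411). The list holds genes of many functions, and its count says nothing of protein cleavage.

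Position on the chromosome was set beside the members to show whether the genes around each member moved with it. Around 24 of the 26 tested members, the median log2 fold change of other tested genes within 5 Mb (megabases) lay between -0.15 and 0.15. ADAM17 was the main exception: 35 tested genes within 5 Mb had a median log2 fold change of 0.50, with 27 that rose and 1 that fell. Its own value, 0.16, was lower than that median, and IAH1, which overlaps it on the opposite strand, rose by 0.93 on the log2 scale. Around ADAMTS9 the median was 0.22, with 9 of 23 genes that rose. Around the 14 members that passed the test the medians ran from -0.11 for ADAM19 to 0.06 for ADAMTS17.

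**Figure D5:**
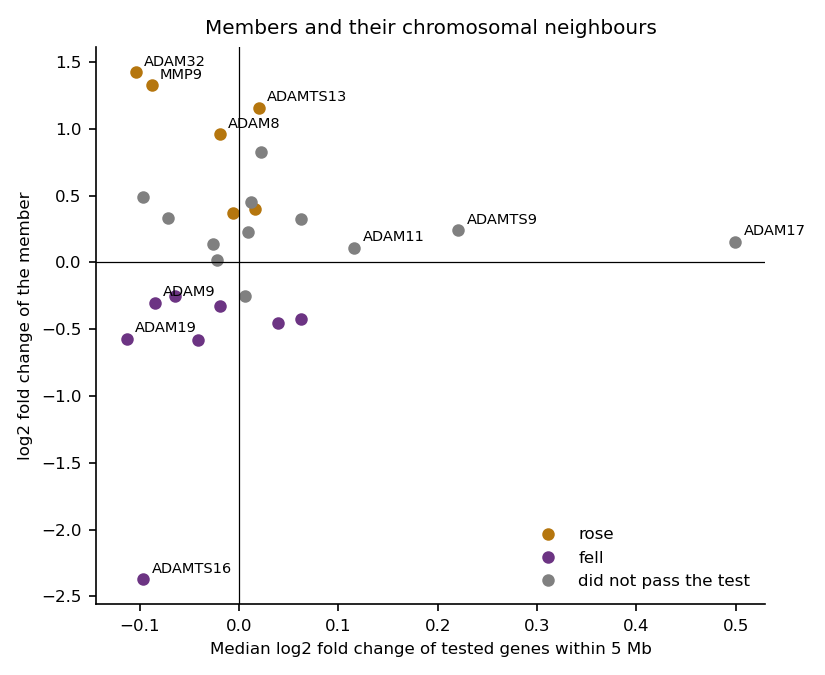
The log2 fold change of each tested member against the median log2 fold change of the other tested genes within 5 Mb, coloured by whether the member rose, fell or did not pass. ADAM17 stands far to the right, at a neighbour median of 0.50 and its own value of 0.16, and ADAMTS9 next, at 0.22.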

How the data were processed

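RNA of 6 SW480 samples was sequenced as strand-specific libraries, per the labels. The deposited table holds 1 log2 value per gene and sample. No header names the scale, which was read from the values as the log2 of RPM (reads per 1000000) plus 1e-04. The submitters' processing notes name Partek, Bowtie and hg38. The table's own coordinates end beyond GENCODE 29 on chromosome 1 (249214146 against 248937043), so they are printed as given and not mixed with GRCh38. The sources used here give no gene models, counting method or strand setting, so reads of genes that overlap on opposite strands may not be told apart.

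Symbols at several loci (1192) had identical values and were used once. From the smallest step in each column, taken as 1 read, the depth was 20360000 to 28590000 reads. Since only 75.1% to 75.9% of low values came within 0.02 reads of whole reads, count models were not run. The floor of 3 reads was 0.105 to 0.147 RPM and covers counting error only. The test was limma 3.58.1 in R 4.3.3 (lmFit, eBayes with a trend), two-sided, knockdown against control with no covariates, for genes averaging 0.688 RPM or more, at an adjusted p of 0.05. It was also run on simulated whole-read counts with far fewer changed genes than were called here, so that run does not vouch for it on these data. Fold changes are on the log2(RPM + 1e-04) scale. Regulators (30 of 35 found) and substrates (41 of 49) were matched by symbol. Members and lists were chosen with earlier results of these data known. All members are named, with up to 8 genes of smallest adjusted p per list and all TIMPs. Other genes of these lists and overlapping genes were named for their role after their values were seen. Alternatives were 4 scalings, 2 pseudocounts, 2 filters, 2 variance priors, a replicate block and leaving out each sample.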

Additional observations from a re-analysis of the deposited data

How the results depend on the processing

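ALDH1B1 kept its fall under all 17 alternatives. Of 14 members called, 9 kept direction and call under every alternative that tested them: ADAM19, ADAM32, ADAM8, ADAM9, ADAMTS13, ADAMTS16, MMP14, MMP15 and MMP9. The stricter filter of 3.44 RPM left ADAM32, ADAM8, ADAMTS16 and MMP9 untested, and with it 3 members rose. ADAM32, ADAMTS16 and MMP9 passed the main filter only through the group in which they were higher. With a pseudocount of 1 RPM their log2 fold changes shrank to 0.65, -0.85 and 0.54. Without a variance trend 9 members changed and 5 fell, and 3 regulators fell. The replicate block also gave 3 regulators that fell. Same-numbered samples had deviations from the group means that correlated at -0.05, -0.06 and -0.13. No shared shift by number was seen, but these values cannot tell whether the samples were paired, and the labels do not say. With the block 13 members changed, ADAM10 missed the threshold (limma adjusted p = 0.0510), and 5481 genes changed, against 6480 without it. Leaving out 1 sample gave 12 to 14 members that changed and 3 to 7 regulators that fell. The uncalled members ADAM11, ADAMTS7 and ADAMTS15 changed sign in some settings. ADAM11 had -0.13 under quantile normalization and -0.093 to 0.22 with single samples left out. ADAMTS15 ran over -0.12 to 0.090 and ADAMTS7 over -0.044 to 0.43 with single samples left out. The cause was not tested. Tested members with a mean under 3.44 RPM rest on at most 104 reads per sample, which limits their precision.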

Other observations

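PAPLN and ADAMTSL5, relatives of the ADAMTS genes without protease activity, rose. PAPLN, or papilin, a matrix protein built like the ADAMTS tail, had 6.74, 7.14 and 8.87 RPM in the knockdown samples, against 5.26, 4.97 and 3.74 RPM in the control samples (log2 fold change 0.71, SE 0.153, limma adjusted p = 6.13e-04). ADAMTSL5, an ADAMTS-like protein that binds fibrillin, had 5.87, 5.24 and 6.87 RPM in the knockdown samples, against 3.45, 4.32 and 2.20 RPM in the control samples (log2 fold change 0.90, SE 0.193, limma adjusted p = 5.80e-04). ADAMTSL2 did not pass the test (log2 fold change -0.11, SE 0.105, limma adjusted p = 0.427).

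Genes that overlap MMPs moved in both directions. MMP24-AS1, which overlaps MMP24 on the opposite strand, fell, with a log2 fold change of -0.48 and means of 23.0 RPM in the knockdown and 32.1 in the control (limma adjusted p = 2.68e-04), while MMP24 itself had 0.33 and did not pass. CHCHD10, which overlaps MMP11, fell by 0.66 on the log2 scale. TMEM198B, which overlaps MMP19, and RP11-473M20.7, which overlaps MMP25, rose by 0.71 and 1.04 on the log2 scale. These genes were chosen after their values were seen.

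The AP-1 site, searched as TGACTCA or TGAGTCA in the 300 bases around the start sites that RefSeq gives on GRCh38, was found in 1 of 22 matched members, MMP7, beginning 67 bases before the start site. The other members, MMP9 among them, were not matched to a promoter and were not searched. Over all promoters of that length 4.95% held it.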
